A study of Mus musculus with 12 samples.

Results

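The miR-34 family is a small group of micro-RNAs whose 5p strands share a seed, and it is best known as a group of transcriptional targets of p53, the tumour suppressor that halts or kills damaged cells. Members were chosen by name, and 4 of the 717 probe sets for mature mouse micro-RNAs read them: miR-34a (probe set mmu-miR-34a_st), miR-34b-5p (mmu-miR-34b-5p_st), miR-34b-3p (mmu-miR-34b-3p_st) and miR-34c (mmu-miR-34c_st). The arrays, GeneChip miRNA arrays, were hybridised with RNA of NIH3T3 cells, an immortalised mouse fibroblast line grown in 10% fetal bovine serum. Cells were left without treatment (0 h) or challenged with 2 μg/ml tunicamycin for 2, 5 or 10 h, with 3 arrays for each time point and 12 in all. Tunicamycin blocks N-linked glycosylation, so that proteins misfold in the endoplasmic reticulum (ER) and the unfolded protein response (UPR) is set off. There were no untreated arrays at 2, 5 or 10 h, so tunicamycin and time in culture cannot be told apart. Whether arrays of 1 time point stem from separate dishes of cells is stated neither in the labels nor in the methods, and the p-values below may therefore rest on technical spread alone.

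In the textbook pathway, p53 binds the promoter of the Mir34a gene and that of the joint Mir34b and Mir34c transcript, and the mature strands restrain mRNAs for cell cycle and survival proteins. Each precursor hairpin is cut by Dicer into a 5p strand and a 3p strand, and Argonaute usually retains one of them as the guide while the other, the passenger or star strand, is lost. The UPR also reaches this family from another side: the RNase of Ire1, a sensor of ER stress, has been described to cleave the precursors of miR-17, miR-34a, miR-96 and miR-125b. The arrays read no mRNA, so the activity of p53 or Ire1 was not measured in these cells.

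The sequences of the strands show how the probe sets divide. In the RefSeq annotation of GRCm38.p6, 3 of the 4 members were matched by name (miR-34c was not), and they are printed with their seed, bases 2 to 8, in capitals, together with the passenger strand of miR-34c and both matched miR-449 strands.
miR-34a: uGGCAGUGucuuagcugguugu
miR-34b-5p: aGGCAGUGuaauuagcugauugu
miR-449a: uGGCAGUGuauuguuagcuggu
miR-449c: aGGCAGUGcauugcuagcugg
miR-34b-3p: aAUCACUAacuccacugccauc
miR-34c*: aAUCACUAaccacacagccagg
The first 4 hold 1 seed, GGCAGUG, and they are the 4 with it among the 1679 mature mouse strands listed there. MiR-34c and miR-449b had no entry there under their names, so their seeds were not read. The 3p strands of the mir-34b and mir-34c hairpins, the last pair, hold a different seed, AUCACUA, found in 2 of the 1679, so that the 5p and the 3p strand of 1 hairpin differ in the bases that micro-RNAs mainly use to find their mRNAs. Compared base by base from the 5′ end, miR-34b-3p and miR-34c* were equal at 17 of 22 positions, and miR-34a and miR-34b-5p at 11 of 22. Whether probe sets for such related strands bind each other's target was not tested.

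The genes lie at 2 places. In GRCm38.p6 the hairpin of Mir34a lies on the plus strand at chr4:150068454-150068555, within no annotated gene. Those of Mir34b and Mir34c lie on the minus strand at chr9:51103562-51103645 and chr9:51103034-51103110, with 451 bases between them, inside the spans of the genes Btg4 and Hoatz. The hairpin of Mir34b shows both strands that the arrays read, in capitals and with the 5p strand first.
Mir34b: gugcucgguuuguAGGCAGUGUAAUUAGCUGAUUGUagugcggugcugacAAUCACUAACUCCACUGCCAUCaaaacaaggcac

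All values are on the log2 scale as deposited, and a difference of 1 is a doubling. As no detection calls came with these values, the background of an array was taken as its most frequent value, and the limit was set 3 spreads above that, each spread measured on the values below the mode. The limit lay between 2.96 and 3.22, exceeded by between 52.2% and 55.8% of mature probe sets. All 4 members exceeded it on all 12 arrays. Deviations of arrays from their time points were compared over the 336 probe sets above the limit on all arrays, which are not independent replicates. The second 0 h and second 5 h arrays deviated together (r = 0.53). Without both, the number of members called was the same in each of the 6 comparisons. Of 8 micro-RNAs known from fibroblasts, 8 were above the limit on all arrays. Of those known from other cells, 1 of 4 from muscle and 1 of 3 from neurons were above it on all arrays and 0 of 4 from blood, 0 of 7 from pluripotent cells, 0 of 1 from liver and 0 of 2 from endothelium were, while 2 from muscle, 3 from neurons, 1 from liver and 1 from endothelium were above it on at least 1 array. Of 7 from epithelial cells 0 were above it on all arrays. Among them miR-205 and miR-200c were above it on all arrays of 0 and 2 h, with means of 9.21 and 7.74 at 0 h. The 0 h arrays thus also read micro-RNAs known from epithelial cells, which are described below.

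At 2 h of tunicamycin the members that were called did not all move in the same direction. MiR-34a and miR-34c, both 5p strands, were lower than in untreated cells, with levels that fell by 24.9% for miR-34a and fell by 29.3% for miR-34c. MiR-34b-3p, the only 3p strand among the 4, was 19.4% higher. By 5 h these differences were no longer called, and at 10 h miR-34c alone of the 4 was called again, at a lower level than at 0 h. All 12 arrays entered 1 limma fit, and a strand counted as called where its p, adjusted over the 717 by Benjamini-Hochberg, was under 0.05. The call of miR-34b-3p at 2 h was lost with each array shifted to 1 median and in the methods' t-test. MiR-34b-5p was not called.

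MiR-34a, the best studied member and the one encoded apart, had values of 10.77, 10.86 and 10.85 at 0 h. It had 10.41, 10.44 and 10.38 at 2 h, then 10.80, 10.74 and 10.81 at 5 h. At 10 h it had 10.82, 10.62 and 10.62. The 3 arrays at 2 h lay below all of the others, those at 5 h lay within the range at 0 h or just under it, and 1 array at 10 h was as high as those at 0 h. The log2 fold change at 2 h was −0.41 (standard error 0.055, 95% interval −0.53 to −0.30, adjusted p = 0.00010 in limma). At 5 h it was −0.04 (−0.16 to 0.08, adjusted p = 0.80) and at 10 h −0.14 (−0.25 to −0.02, adjusted p = 0.13). Without the first 10 h array, which was the high one, the difference at 10 h was −0.20 and was called (adjusted p = 0.014).

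MiR-34c, the 5p strand of the second hairpin on chromosome 9, was likewise lowest at 2 h and higher again at 5 h. Its values were 10.58, 10.62 and 10.62 at 0 h and 10.21, 10.04 and 10.06 at 2 h. They were 10.47, 10.51 and 10.53 at 5 h and 10.42, 10.36 and 10.30 at 10 h. Arrays of the 4 time points did not overlap at all for this strand, and their order was 0, 5, 10 and 2 h from high to low. The log2 fold change at 2 h was −0.50 (standard error 0.053, 95% interval −0.61 to −0.39, adjusted p = 1.5e-05 in limma). At 5 h it was −0.10 (−0.21 to 0.02, adjusted p = 0.35). At 10 h it was −0.25 (−0.36 to −0.13, adjusted p = 0.0056), a call that was lost with each array shifted to 1 median (−0.17, adjusted p = 0.33) and in the methods' t-test (adjusted p = 0.050).

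MiR-34b-5p, which carries the same seed as miR-34a and comes from the neighbouring hairpin, was dimmer and more scattered. Its values were 7.09, 7.43 and 7.28 at 0 h and 6.76, 6.96 and 6.76 at 2 h. The 5 h arrays read 6.89, 6.85 and 7.43, and the 10 h arrays 7.16, 6.93 and 6.96. The arrays at 2 h lay below all those at 0 h, while the arrays at 5 h and 10 h overlapped with those at 0 h. The log2 fold change of −0.44 at 2 h was close to that of miR-34a, with a standard error of 0.15 and a 95% interval from −0.76 to −0.12 that was much wider, and it was not called (adjusted p = 0.065 in limma). The differences at 5 and 10 h were −0.21 (−0.53 to 0.11, adjusted p = 0.52) and −0.25 (−0.57 to 0.06, adjusted p = 0.34). This difference at 2 h was called under 6 of 25 alternatives, among them the fit of only the brighter 50% of probe sets (adjusted p = 0.034) and the fit without the third 5 h array (adjusted p = 0.019).

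MiR-34b-3p, the other strand of that hairpin, went the opposite way at 2 h. Its values were 10.48, 10.37 and 10.48 at 0 h and 10.70, 10.65 and 10.76 at 2 h. They were 10.30, 10.33 and 10.24 at 5 h and 10.48, 10.56 and 10.51 at 10 h. The arrays at 2 h were the highest and those at 5 h the lowest, with no overlap between any 2 time points, although the highest array at 0 h and the lowest at 10 h round to the same value. The log2 fold change at 2 h was 0.26 (standard error 0.050, 95% interval 0.15 to 0.36, adjusted p = 0.0031 in limma). With each array shifted to 1 median it was 0.22 and not called (adjusted p = 0.19), and the methods' t-test did not call it (adjusted p = 0.092). At 5 h the difference was −0.16 (−0.27 to −0.05, adjusted p = 0.065), which was called under 6 of 25 alternatives, and at 10 h it was 0.07 (−0.03 to 0.18, adjusted p = 0.43).

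**Figure D1:**
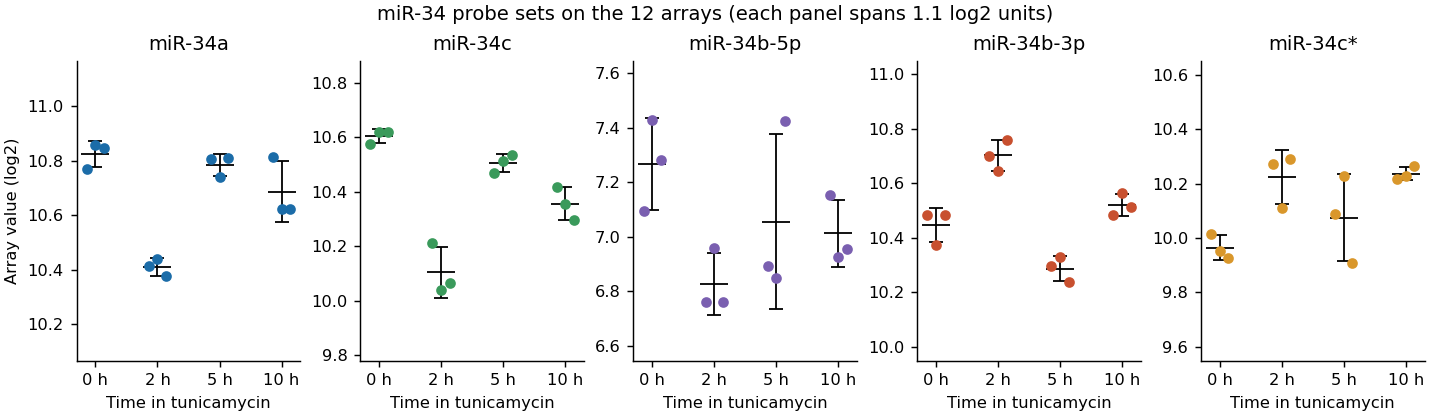
Log2 array values of the 4 miR-34 members and of miR-34c* on each of the 12 arrays, by time in tunicamycin; points are arrays, horizontal bars the means and error bars 1 SD of 3 arrays, and all panels have the same height but different positions on the log2 axis. MiR-34a and miR-34c dip at 2 h, to means of 10.41 and 10.11, and miR-34b-3p peaks there, at 10.70.

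Read against all probe sets, 3 of 4 members were called at 2 h, 2 lower and 1 higher, where 5.86% of the 717 were called lower and 7.39% higher (13.2% in either direction). None was called at 5 h, where 4.32% of all were higher and 4.04% lower (8.37% in either direction). By the unadjusted p of the same limma fit 1 of 4, miR-34b-3p, was under 0.05 at 5 h, as were 133 of all 717. At 10 h 1 of 4 was called, lower, where 7.11% of all were lower and 5.58% higher (12.7% in either direction). The split over all probe sets depended on the scaling. At 2 h 53 were called higher and 42 lower, but 7 and 30 with each array shifted to 1 median, and 26 and 49 with arrays shifted to the median of the probe sets above the limit. At 5 h these counts were 31 and 29, 11 and 11, and 11 and 81, and at 10 h 40 and 51, 38 and 18, and 37 and 38. Without the second 0 h array the split at 2 h was 29 and 29. Arrays did not overlap between 2 h and 0 h for 4 of 4 members, against 30.1% of all probe sets, and for 2 of 4 at 5 h and 2 of 4 at 10 h, against 21.5% and 28% of all. Over the 4 members the log2 fold changes had medians of −0.43, −0.13 and −0.19 at 2, 5 and 10 h, beside 0.03, 0.03 and 0.02 over all 717. Many other strands changed more than these. At 2 h miR-34c had the 45th lowest log2 fold change of 717, miR-34b-5p the 60th and miR-34a the 67th, and miR-34b-3p had the 112th highest. Across all 3 comparisons with 0 h, the moderated F test called miR-34a (adjusted p = 0.00015), miR-34b-3p (adjusted p = 0.00014) and miR-34c (adjusted p = 2.8e-05) but not miR-34b-5p (adjusted p = 0.20), where 21.8% of all probe sets were called. The shares of the 717, here and below, include probe sets under the limit, which only 52.2% to 55.8% exceeded on an array. As all members exceeded it, such shares can set the family apart too strongly. The fit of only the brighter 50% of probe sets called 117 in the 2 h comparison, 67 higher and 50 lower. Its calls for 5 h numbered 75 and those for 10 h 95. Members among these calls were 4, 1 and 1, in order of time.

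**Figure D2:**
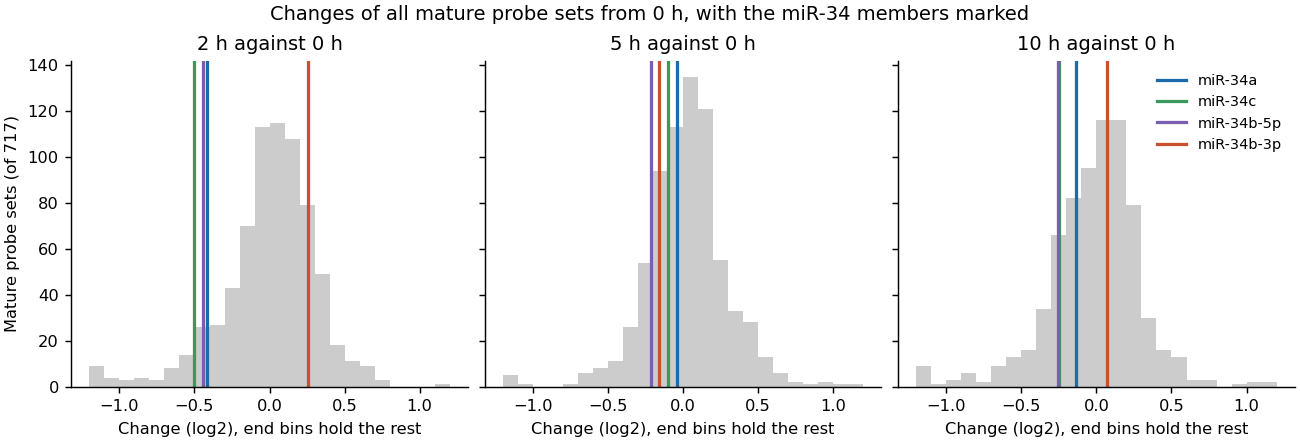
Histograms of the log2 fold change from 0 h of all 717 mature probe sets at 2, 5 and 10 h, with the 4 members as vertical lines; the end bins hold all larger changes. At 2 h the lines of the 5p strands, between −0.50 and −0.41, lie left of the bulk and that of miR-34b-3p, at 0.26, right of its centre.

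The return after 2 h was tested on the same 3 arrays at 2 h that gave the differences from 0 h. Anything particular to those arrays would enter both, so the return is not a separate result. The same holds for the other comparisons with 2 h. In limma, the log2 level of miR-34a rose from 2 to 5 h by 0.38 (standard error 0.055, adjusted p = 0.00021) and that of miR-34c by 0.40 (standard error 0.053, adjusted p = 8.4e-05), while miR-34b-3p fell by 0.42 (standard error 0.050, adjusted p = 3.3e-05). Thus 2 of 4 members were called higher and 1 lower in this step, against 5.86% and 4.88% of all probe sets (10.7% in either direction), and all 3 calls held under all 25 alternatives. MiR-34b-5p had a difference of 0.23 (95% interval −0.09 to 0.55, adjusted p = 0.43). From 5 to 10 h, miR-34b-3p was called, with a rise of 0.23 (adjusted p = 0.011), where 1.81% of all were called higher and 3.77% lower (5.58% in either direction). That call was lost under 5 of 25 alternatives: without the second 10 h array (adjusted p = 0.072), without the third 10 h array (adjusted p = 0.052), with each array shifted to 1 median, without a trend in the prior variance and in the methods' t-test (adjusted p up to 0.13). Over all probe sets this step had 13 calls higher and 27 lower, but 9 and 5 with each array shifted to 1 median and 88 and 9 with the shift to the median of those above the limit. MiR-34a and miR-34c had differences of −0.10 (adjusted p = 0.47) and −0.15 (adjusted p = 0.15) in this step.

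At 10 h miR-34a and miR-34c were still above their log2 level at 2 h, by 0.28 for miR-34a (adjusted p = 0.0027 in limma) and by 0.25 for miR-34c (adjusted p = 0.0044), where 5.72% of all probe sets were called higher. MiR-34b-3p was below its level at 2 h, by a log2 difference of −0.18 (adjusted p = 0.025), where 5.16% were called lower (10.9% in either direction). The methods' t-test did not call the difference of miR-34a (adjusted p = 0.13) or of miR-34c (adjusted p = 0.14), and the other 24 alternatives did. The call of miR-34b-3p was lost under 10 of 25 alternatives, with adjusted p from 0.0017 to 0.77 over all of them, and the shift of each array to 1 median brought it to −0.06. In the order of levels over time, then, 0 and 5 h did not differ by the test for any member. Neither did 5 and 10 h for miR-34a, miR-34c and miR-34b-5p, or 0 and 10 h for miR-34a and miR-34b-3p. No pair of time points differed by the test for miR-34b-5p.

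MiR-34c*, the 3p passenger strand of the mir-34c hairpin, is not one of the 4 but completes the picture of the strands. Its values were 10.02, 9.95 and 9.93 at 0 h and 10.27, 10.11 and 10.29 at 2 h. The 5 h arrays read 10.09, 10.23 and 9.91, and the 10 h arrays 10.22, 10.23 and 10.26. All arrays at 2 h and at 10 h lay above those at 0 h, and those at 5 h spread over both ranges. The log2 fold change at 2 h was 0.26, with a standard error of 0.072 and an adjusted p of 0.027 in limma. At 10 h it was 0.27 (adjusted p = 0.021), and at 5 h 0.11 and not called (adjusted p = 0.49). The call at 2 h was lost under 10 of 25 alternatives and that at 10 h under 6, among both of them the fits without the second or without the third 0 h array (adjusted p at 2 h = 0.081 and 0.088).

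**Figure D3:**
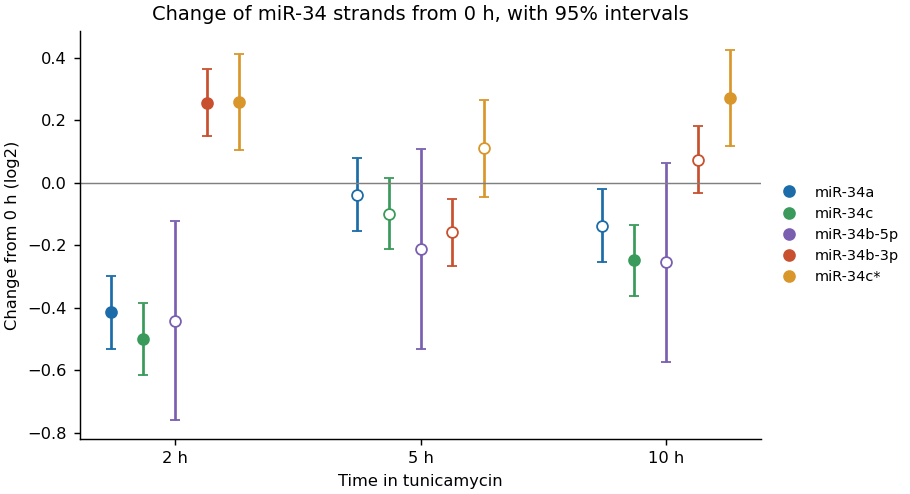
Log2 fold change from 0 h of each strand at 2, 5 and 10 h, with 95% intervals from limma; filled points were called at an adjusted p under 0.05 and open points were not. At 2 h the 5p strands lie below 0 and both 3p strands above it, at 0.26 and 0.26.

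A difference between 2 strands on 1 array does not move with a shift shared by all log2 values of that array. An effect of the array that depends on level would not cancel. The change of the 5p minus 3p difference was fitted in limma over all 55 hairpins that have 2 strands on the arrays and both above the limit on every array. This test was chosen after the data were seen. For mir-34c the difference was 0.56, 0.67 and 0.69 at 0 h and −0.06, −0.07 and −0.23 at 2 h. On the 5 h arrays it was 0.38, 0.29 and 0.63, and on the 10 h arrays 0.20, 0.13 and 0.03. The arrays at 2 h were lowest, those at 10 h next, and those at 5 h reached into the range at 0 h. Only the change of such a difference can be read, since probes differ in brightness. For mir-34c the change was −0.76 at 2 h, with a standard error of 0.10 (adjusted p = 0.00033 in limma over the 55), and −0.52 at 10 h (adjusted p = 0.0034). At 5 h it was −0.21 and not called (adjusted p = 0.22).

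For mir-34b the difference was −3.39, −2.94 and −3.20 at 0 h and −3.94, −3.69 and −4.00 at 2 h. It was −3.40, −3.48 and −2.81 at 5 h and −3.33, −3.63 and −3.55 at 10 h. Here too the arrays at 2 h lay below all those at 0 h, and those at 5 h and 10 h overlapped with them. At 2 h the change was −0.70, with a standard error of 0.18 and an adjusted p of 0.015 in limma. Neither the −0.33 at 10 h (adjusted p = 0.26) nor the −0.05 at 5 h (adjusted p = 0.84) was called. The call at 2 h was lost without the second 0 h array (−0.58, adjusted p = 0.057) and without the third 2 h array (−0.64, adjusted p = 0.060). From 2 to 5 h the difference rose for both hairpins, by 0.55 for mir-34c (adjusted p = 0.0030) and by 0.64 for mir-34b (adjusted p = 0.024), the latter not without the first 2 h array (adjusted p = 0.060), the third 2 h array (adjusted p = 0.087) or the third 5 h array (adjusted p = 0.074).

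Other hairpins were called in this difference too. Of the 55 hairpins, 30.9% were called lower in this difference at 2 h and 3.64% higher (34.5% in either direction), where strands named without 5p or 3p enter as plain minus star strand. At 5 h the shares were 9.09% lower and 3.64% higher (12.7%), and at 10 h 23.6% lower and 10.9% higher (34.5%). Between 2 and 5 h 27.3% moved up and 1.82% down (29.1%). Single arrays weighed on these counts. The 17 called lower at 2 h were 11 without the second 0 h array or the third 2 h array and 11 with a replicate block. The 13 lower at 10 h were 8 without the third 10 h array, and the 15 higher from 2 to 5 h were 8 without the first 2 h, the third 2 h or the third 5 h array and 10 with a replicate block. Strands of 1 hairpin called in opposite directions in the fit of single probe sets were rarer. At 2 h there were 4 such hairpins of 55 (mir-34c, mir-27b, mir-140 and mir-671, named after their values were seen), at 5 h 0, and at 10 h 1, which was mir-34c. MiR-34a has 1 strand on the arrays, so no such difference can be given for it.

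**Figure D4:**
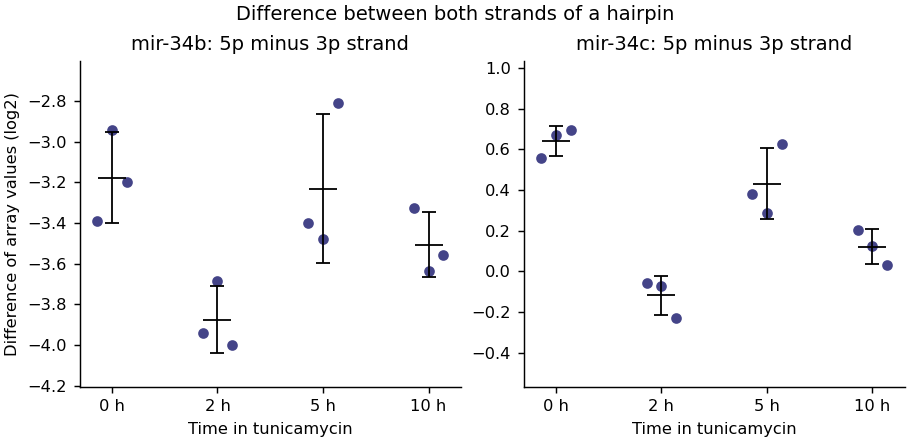
Difference of the log2 array values of the 5p and the 3p strand of the mir-34b and mir-34c hairpins on each array, by time in tunicamycin; points are arrays, horizontal bars means and error bars 1 SD of 3 arrays. Both differences are lowest at 2 h, with means of −3.88 and −0.12 against −3.18 and 0.64 at 0 h, and only their change over time, not their level, can be read.

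Pairs of members were also compared array by array, with the change of their difference from 0 h tested by an exact two-sided permutation test for 6 pairs at 3 times, 18 tests in all. With 3 arrays against 3 such a test cannot give a p below 0.1, and no adjusted p was below 0.36. At 2 h all 3 pairs that set miR-34b-3p against a 5p strand were without overlap between the time points, where 25.4% of all pairs among the 717 probe sets were. The log2 changes were −0.67 for miR-34a minus miR-34b-3p, 0.70 for miR-34b-3p minus miR-34b-5p and 0.76 for miR-34b-3p minus miR-34c (exact p = 0.1 each), and the 3 pairs share miR-34b-3p, so they are not 3 separate results. The 3 pairs among the 5p strands overlapped, with changes at 2 h of 0.09 for miR-34a minus miR-34c (exact p = 0.3), 0.03 for miR-34a minus miR-34b-5p (exact p = 0.8) and 0.06 for miR-34b-5p minus miR-34c (exact p = 0.7). At 5 h no pair was without overlap, against 19.5% of all pairs, and at 10 h 2 of 6 were, against 25.4%.

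The precursor hairpins have probe sets of their own, fitted apart among 690. The mir-34c hairpin was above the background limit on all arrays, with means of 4.84 ± 0.03 (SD, n = 3 arrays) at 0 h, 4.83 ± 0.06 at 2 h, 4.76 ± 0.19 at 5 h and 4.88 ± 0.08 at 10 h. It did not follow its mature strands in any way that the test could call, with a difference of 0.00 at 2 h and a 95% interval from −0.24 to 0.23. The hairpins of mir-34a and mir-34b were below the limit on all arrays, with means between 2.35 and 2.72. None of the 3 was called in any comparison, where limma called 0 of 690 against 0 h at any time, 0.58% from 2 to 5 h and 0.29% from 2 to 10 h. By unadjusted p under 0.05 in the same fit there were 43, 45 and 52 of 690 at 2, 5 and 10 h against 0 h, among them the mir-34a hairpin at 2 h (log2 difference −0.36) and the mir-34b hairpin at 10 h (−0.27), both at background level.

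MiR-449a and miR-449c share the seed of miR-34a, and that of miR-449b was not read here. The miR-449 strands are known from multiciliated cells, and their genes lie within Cdc20b on chromosome 13. MiR-449a and miR-449c were below the background limit on every array, with means between 1.52 and 1.75. MiR-449b was above it on all of them, with means of 5.81 ± 0.03 (SD, n = 3), 5.99 ± 0.22, 5.90 ± 0.27 and 5.90 ± 0.08 at 0, 2, 5 and 10 h. None of the 3 was called at any time, and the log2 difference of miR-449b at 2 h was 0.18 (adjusted p = 0.57 in limma).

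Of 8 other micro-RNAs tied to p53 through transcription or processing, 1 was called higher and 3 lower at 2 h, where 7.39% of all 717 were higher and 5.86% lower. The later time points had 1 call in each direction, at 5 h (4.32% and 4.04% of all) as at 10 h (5.58% and 7.11%). The median log2 fold changes of the 8 were −0.10, 0.00 and −0.06, in order of time. MiR-145, a p53-induced micro-RNA of mesenchymal cells that lowers Myc, rose from 13.20 ± 0.04 (SD, n = 3) to 13.41 ± 0.03 at 2 h, a log2 fold change of 0.21 (adjusted p = 0.00014 in limma). It was called higher at 5 h too (0.24, adjusted p = 4.2e-05) and at 10 h (0.30, adjusted p = 2.4e-06). MiR-143 and miR-16, whose processing p53 is known to promote, fell by 0.20 (adjusted p = 0.0017) and 0.13 (adjusted p = 0.012) at 2 h and were not called at 5 or 10 h. MiR-143 was called higher from 2 to 5 h (0.31, adjusted p = 3.2e-05). MiR-200c, a p53-induced micro-RNA that keeps cells epithelial, was the other one called lower, from 7.74 ± 0.11 at 0 h to 4.30 ± 0.24 at 2 h, and it was below the background limit on all arrays at 5 and 10 h. MiR-192, miR-194 and miR-107 had log2 differences between −0.25 and 0.03 from 0 h that were not called, and miR-215 was below the background limit on every array.

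Of the 4 micro-RNAs described as substrates of Ire1, 2 were called lower at 2 h, where 5.86% of all 717 were. The 2 were miR-34a, a member already given above, and miR-17, the only further call. This list, like the others, was chosen with earlier results of these data known. MiR-17, a proliferation-promoting micro-RNA, fell from 13.38 ± 0.02 (SD, n = 3) to 13.12 ± 0.03, a log2 fold change of −0.26 (standard error 0.031, adjusted p = 4.3e-05 in limma). Like miR-34a it was higher again at 5 h than at 2 h (0.16, adjusted p = 0.0028) and was not called against 0 h at 5 h (−0.10, adjusted p = 0.067) or 10 h (−0.04, adjusted p = 0.49). MiR-125b-5p had a difference of 0.01 at 2 h (standard error 0.021, adjusted p = 0.83), and the dim miR-96 one of −0.23 with a standard error of 0.32 (adjusted p = 0.73). No list member was called at 5 or 10 h.

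Micro-RNAs known from epithelial cells fell at 2 h and stayed lower. Of 7, 5 were called lower at each of 2, 5 and 10 h, where 5.86%, 4.04% and 7.11% of all 717 were. Of these 5, miR-205 and miR-200c were above the limit on all arrays of 0 and 2 h and miR-200b on 2 arrays of 0 h, but miR-200a and miR-203 were below it on every array, so that no measured change stands behind these last calls. The summed linear level of the 7 lay between 799.5 and 874.6 on the 0 h arrays and between 69.3 and 91.1 on the 2 h arrays. It was 24.3 to 25.9 on the arrays of 5 h and 23.9 to 28.1 on those of 10 h. In these bulk samples fewer cells of a type and less RNA per cell cannot be told apart. MiR-141 and miR-429 were below the limit on every array too. The part of these micro-RNAs in the changes of miR-34a, miR-34c and miR-34b-3p was not tested. The summed level of the 7 was lower at 5 h than at 2 h, and none of the 7 was called from 5 to 10 h.

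By the course over the 12 arrays, each centred on its own mean, the strands most like a member among 335 others above the limit on all arrays were ranked by the root mean square difference of their log2 values, a description that shares the 12 arrays. Nearest to miR-34a were miR-34c (0.068), miR-27a (0.069) and miR-30a (0.070), and nearest to miR-34c were miR-106b (0.057), miR-34a (0.068) and miR-324-5p (0.078). Nearest to miR-34b-3p were miR-28* (0.045), miR-674* (0.062) and miR-501-3p (0.067), with no 5p member of the family among them. Nearest to miR-34b-5p were miR-30e (0.13), miR-15a (0.14) and miR-20b (0.14), against a spread of miR-34b-5p itself of 0.23 on the same scale.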

How the data were processed

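From GeneChip miRNA arrays (total RNA, tailed and biotin-labelled) the authors deposited 1 log2 value for each probe set and array, made with RMA per the labels' processing notes, with version and settings not given in the sources used here. RMA commonly compresses differences, so folds may be understated. Both deposited tables held equal values. Groups came from the sample titles. Of 1412 probe sets, the 717 for mature mouse micro-RNAs entered a fit in limma (version 3.58.1, R 4.3.3; 12 arrays, time as factor, prior variance with a trend of the mean) with Benjamini-Hochberg adjustment, and 690 hairpin probe sets were fitted apart. Exact permutation tests used SciPy. Precision is limited by the number of arrays. The fit was tested on simulated data with independent noise for each probe set and array. Such data cannot show the effect of deviations shared between arrays. Members and lists were chosen with earlier results of these data known, and named genes were all members, their star strands and hairpins, miR-449, fixed p53 and Ire1 lists, and the 3 strands nearest to each member; epithelial markers come from the list of cell type markers, and hairpins with opposite calls were named after their values were seen. The methods name analysis of variance and t-tests, which were run as alternatives, beside other scalings, filters, variance models, array weights, replicate number as a block and each array left out. Other species' probe sets were not used here. Gene names and sequences came from RefSeq GRCm38.p6.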

Additional observations from a re-analysis of the deposited data

Results flagged for a closer look

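Several changes from 0 h differed between time points by the limma test of the difference itself, and each is given here for that reason. For miR-34a the change at 5 h exceeded that at 2 h by 0.38 on the log2 scale and that at 10 h exceeded that at 2 h by 0.28. For miR-34c the same differences were 0.40 and 0.25. For miR-34b-3p they had the opposite sign, −0.42 and −0.18, and the change at 10 h exceeded that at 5 h by 0.23. The adjusted p-values stand beside these steps above. The 3 differences between 5 h and 2 h held under all 25 alternatives, but they rest on the same 3 arrays at 2 h as the changes at 2 h. Those between 10 h and 2 h of miR-34a and miR-34c were lost in the methods' t-test, and the 2 later ones of miR-34b-3p in that test and in others. With 3 arrays for each time point, single arrays were not screened as outliers.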

How the results depend on the processing

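The calls at 2 h against 0 h of miR-34a and miR-34c and all 3 calls at 5 h against 2 h held under every alternative run. These calls share the arrays at 2 h. The number of members called at 2 h against 0 h, at 5 h against 2 h and in the F test stayed within 1.5 times its value. At 5 h against 0 h, 0 members were called, but 1 after quantile normalization, with the brighter 50% of probe sets, with probe sets above background at a time point or with array weights, 2 with arrays shifted to the median of probe sets above background (chosen after the data were seen), and 0 to 1 with each array left out. At 10 h against 0 h, 1 was called, but 0 with each array shifted to 1 median or in the methods' t-test, and 1 to 2 with each array left out. At 10 h against 5 h, 1 was called, but 0 with that shift, without a trend in the prior variance or in the t-test, 2 after quantile normalization, and 0 to 1 with each array left out. At 10 h against 2 h, 3 were called, but 0 in the t-test. Fewer probe sets tested is part of the filters' construction, and the cause was not tested for the others. Pairs of members without overlap from 0 h numbered 5 of 18, and 5 to 8 with each array left out. Over all mature probe sets, the 95, 60 and 91 calls at 2, 5 and 10 h against 0 h ranged over the arrays left out from 58 to 102, 30 to 65 and 70 to 97. They were 37, 22 and 56 with each array shifted to 1 median, 53, 32 and 54 without a trend in the prior variance, and 36, 10 and 40 in the t-test. At 5 h there were 27 in a fit of only the arrays compared and 92 with the shift to the median above background. Between treated times, the 77 calls from 2 to 5 h, 40 from 5 to 10 h and 78 from 2 to 10 h were 51, 14 and 62 with the shift to 1 median, 49, 20 and 61 without the trend and 32, 11 and 38 in the t-test. Those at 10 h against 5 h were 97 with the shift to the median above background, 26 in the fit of the arrays compared and 16 to 41 over the arrays left out. The split of the 42 higher and 35 lower at 5 h against 2 h became 32 and 77 with the shift to the median above background, and that of the 41 and 37 at 10 h against 2 h became 45 and 17 with the shift to 1 median.

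Sign changes were limited to differences that were not called: miR-34a at 5 h with the second array of both 0 h and 5 h removed (0.00020) and at 10 h against 5 h with the shift to the median of probe sets above background (0.070), where miR-34c also turned (0.019) and miR-34b-5p did (0.13). MiR-34b-5p in that step turned with the shift to 1 median (0.053) and after quantile normalization (0.026), with −0.15 to 0.14 over the arrays left out. MiR-34c* turned at 5 h with the shift to the median above background (−0.040) and at 10 h against 2 h after quantile normalization (−0.022), with −0.045 to 0.046 over the arrays left out, and the strand difference of mir-34b at 5 h after quantile normalization (0.018), with −0.26 to 0.072.

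The replicate numbers of the labels gave correlations of deviations from −0.32 to 0.53 over 18 same-number pairs. Whether arrays with the same number share more than that number cannot be told from this range. With a replicate block, 3, 0 and 1 members were called at 2, 5 and 10 h against 0 h, and 2 rather than 3 at 10 h against 2 h. Depth cannot be judged from array values. Hairpins of mir-34a and mir-34b and the miR-449a and miR-449c strands were below background, where changes are not measured.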
